A study of Mus musculus with 8 samples.

Results

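The 10 genes described here belong to the fibroblast growth factor (FGF) pathway. They comprise 5 secreted ligands (*Fgf3*, *Fgf8*, *Fgf9*, *Fgf10* and *Fgf20*), 4 receptor tyrosine kinases (*Fgfr1*, *Fgfr2*, *Fgfr3* and *Fgfr4*) and *Fgfrl1*, which encodes a receptor that binds FGFs but has no kinase domain. They were chosen by gene symbol, through the Ensembl identifiers that carry these symbols in the NCBIM37 annotation, and all 10 were found among the 36536 genes counted in each library.

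FGF ligands bind their receptors together with heparan sulfate, and the paired receptors then phosphorylate adapter proteins that pass the signal to the ERK kinases. ERK activity in turn raises transcription of ETS-family factors and of inhibitors such as the Sprouty proteins, which damp the pathway. In the inner ear, *Fgf3* and *Fgf10* are known for their part in forming the otic placode and vesicle, *Fgf20* and *Fgfr1* for the growth of the sensory region, and *Fgf8* and *Fgfr3* for the development of pillar cells beside the inner hair cells.

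The libraries came from cochleas of *Lfng-GFP* mice (B6;FVB-Tg(Lfng-EGFP)HM340Gsat/Mmucd), which carry a bacterial artificial chromosome expressing GFP from the regulatory sequences of *Lfng*. GFP-expressing (GFP+) and non-expressing (GFP-) cells were sorted at postnatal day 1 (P1) and postnatal day 6 (P6), giving 4 groups of 2 replicate libraries, and every group carried the transgene and was sorted fresh, with no culture or treatment. Only the brightest GFP+ cells were taken. The transgene marks most supporting cells, including Deiters' cells and outer pillar cells, but not inner pillar cells. GFP- libraries hold other cells that the dissection left, but cells with low GFP were collected in neither fraction. The paper takes those as likely inner pillar cells and inner hair cells. The stria vascularis and neighbouring tissue were taken off at P1 but only in part at P6. The age of the mice and the makeup of the GFP- cells therefore cannot be told apart. Cells of many cochleas were pooled for a library, and the labels do not say whether the replicates of a group came from separate litters, so that p-values measure only the spread between these libraries.

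The libraries held 17769024 to 67695039 counts on genes. Levels are given in CPM, the counts of a gene per 1000000 counts on genes in that library, and a gene with no count could have a level of up to 0.0443 to 0.169 CPM, depending on the library, from counting error alone. The summed level of 8 supporting cell genes was 4940 to 7192 CPM in GFP+ and 600.1 to 778 CPM in GFP- libraries, although 2 of the 8 overlapped between the fractions (*Slc1a3*, 157 to 268 and 217 to 379 CPM, and *Sox9*, 136 to 229 and 102 to 156 CPM). A list of 11 hair cell genes summed to 589 to 934 CPM in GFP+ and 373 to 474 CPM in GFP- cells. The largest part was *Myo6* (250 to 476 and 312 to 406 CPM), which overlapped between the fractions, as did *Myo7a*, *Slc17a8* and *Tmc1*. The others, *Pou4f3* (9.01 to 15.9 and 0.470 to 1.46 CPM), *Gfi1*, *Atoh1*, *Otof*, *Rbm24*, *Strc* and *Loxhd1*, were higher in every GFP+ than in any GFP- library. Some replicates of a group were unlike. P1 GFP- replicate 2 had 465 CPM of 5 neuron genes against 139 CPM in replicate 1. P6 GFP+ replicate 2 had 2754 CPM of 7 mesenchyme genes against 797 CPM in replicate 1, and *Fgfr2* and *Fgfr4* were also higher in it.

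The promoters are shown first for 3 receptor genes on which the results turn, *Fgfr3* and *Fgfrl1*, which were higher in GFP+ cells at both ages, and *Fgfr2*, which was higher in GFP- cells at P1. Each sequence is the 250 bases before the RefSeq transcript start (GRCm38.p6), written 5′ to 3′ on the strand of the gene. The windows are chr5:33721474-33721723 (plus strand, the first of 2 *Fgfr3* starts), chr5:108693979-108694228 (plus strand, *Fgfrl1*) and chr7:130266809-130267058 (minus strand, *Fgfr2*). Capitals mark the GC box GGGCGG, the ETS core CCGGAA and the E box CAGCTG, each on either strand.
Fgfr3: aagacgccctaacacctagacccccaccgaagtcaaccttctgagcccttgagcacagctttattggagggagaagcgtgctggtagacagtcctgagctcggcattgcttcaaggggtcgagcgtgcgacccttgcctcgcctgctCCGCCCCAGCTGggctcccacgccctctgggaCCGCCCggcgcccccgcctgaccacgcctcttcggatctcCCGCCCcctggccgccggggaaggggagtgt
Fgfrl1: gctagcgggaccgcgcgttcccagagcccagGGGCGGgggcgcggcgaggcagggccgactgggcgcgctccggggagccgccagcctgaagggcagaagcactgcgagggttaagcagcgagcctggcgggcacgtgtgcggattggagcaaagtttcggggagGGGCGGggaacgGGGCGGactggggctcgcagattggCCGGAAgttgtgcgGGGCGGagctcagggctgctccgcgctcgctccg
Fgfr2: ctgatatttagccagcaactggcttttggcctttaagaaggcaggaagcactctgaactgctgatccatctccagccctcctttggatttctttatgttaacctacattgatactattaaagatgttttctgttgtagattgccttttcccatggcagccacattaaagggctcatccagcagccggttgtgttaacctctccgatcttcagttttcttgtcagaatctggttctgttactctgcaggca

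Of the 10 genes, 7 matched an entry of the RefSeq promoter table, and *Fgf8*, *Fgf20* and *Fgfr1* did not. The search covered 6 motifs on both strands, which were the 3 above and TATAAA, the SOX core ACAAAG and the RBPJ core GTGGGAA. In the *Fgfr3* window there were 3 GC boxes and 1 E box that directly follows one of them, and in the *Fgfrl1* window 4 GC boxes and 1 ETS core. The *Fgfr2* window held none of the 6, nor did the windows of *Fgf3* and *Fgf9*, while *Fgfr4* had 2 GC boxes and 1 ETS core and *Fgf10* had 1 GC box. A GC box stands in 32.7% of 32851 RefSeq promoters cut to the same length, an ETS core in 12.0%, an E box in 13.0%, TATAAA in 12.4%, ACAAAG in 16.5% and GTGGGAA in 5.42%. The GC content was 66.8% for *Fgfr3*, 73.6% for *Fgfrl1* and 44% for *Fgfr2*, around a median of 52.4% over all these promoters. These matches describe the letters in the windows and say nothing of binding.

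The first question was which FGF genes differed between GFP+ supporting cells and GFP- cells at P1. At P1, 5 of the 10 genes were higher in GFP+ cells (*Fgf3*, *Fgf8*, *Fgf20*, *Fgfr3* and *Fgfrl1*), 2 were higher in GFP- cells (*Fgfr2* and *Fgfr4*), and *Fgf9*, *Fgf10* and *Fgfr1* did not pass the test. The test was edgeR's quasi-likelihood test with Benjamini-Hochberg adjustment over all genes tested, and a gene passed at an adjusted p below 0.01. Among all 18682 genes tested at P1, 16.6% passed as higher in GFP+ cells and 20.7% as higher in GFP- cells. At P6, 5 genes were higher in GFP+ cells (*Fgf3*, *Fgf10*, *Fgf20*, *Fgfr3* and *Fgfrl1*), against 7.72% of 18294 genes tested, and 1 was higher in GFP- cells (*Fgfr1*), against 5.19%. The P6 calls rest on both GFP- libraries. Without P6 GFP- replicate 2 none of the 10 passed by edgeR and no other gene of the 18019 then tested did, although 9 of the 10 had an unadjusted p below 0.05 in that fit. Without P6 GFP- replicate 1, *Fgf20* (adjusted p = 0.0111 by edgeR) and *Fgfr1* (adjusted p = 0.0277 by edgeR) no longer passed.

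**Figure D1:**
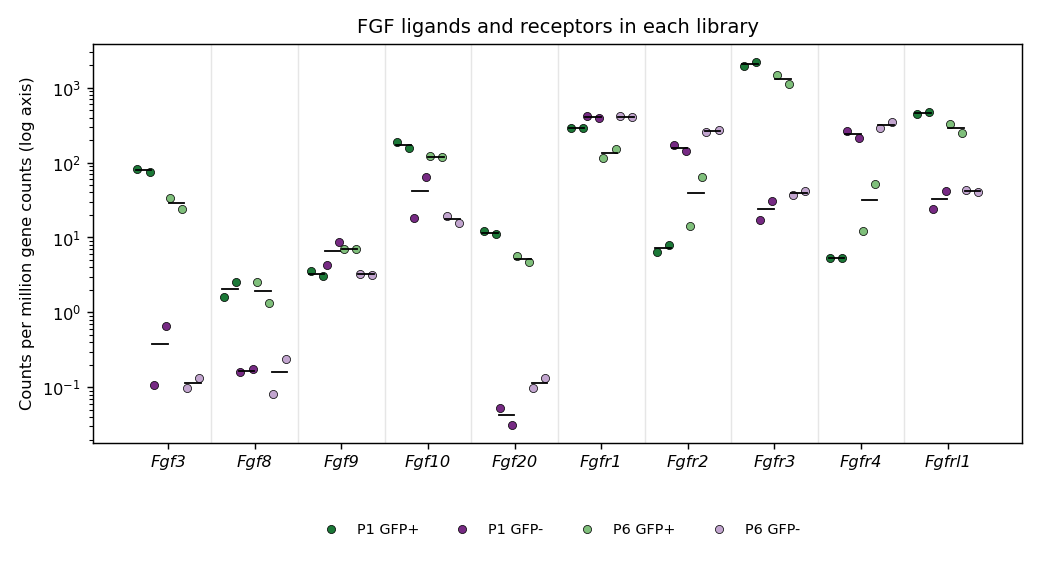
Level of each of the 10 genes in each library, in CPM on a log axis. Points are libraries (2 per group), bars are group means and colors are the 4 groups. The GFP+ points of *Fgf3*, *Fgf8*, *Fgf10*, *Fgf20*, *Fgfr3* and *Fgfrl1* lie above the GFP- points at both ages, and those of *Fgfr1*, *Fgfr2* and *Fgfr4* lie below them.

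*Fgf3*, *Fgf20* and *Fgf8* were the ligands found mainly in the GFP+ libraries. *Fgf3* (ENSMUSG00000031074, in NCBIM37, as all gene positions here, chr7:152023988-152030341, plus strand) had 82.3 and 74.5 CPM in P1 GFP+ cells and 0.106 and 0.650 CPM in P1 GFP- cells. At P6 its levels were 33.4 and 24.2 CPM in GFP+ cells and 0.0973 and 0.133 CPM in GFP- cells. Every GFP+ library was therefore far above every GFP- library at either age. The log2 fold change of *Fgf3* between the fractions was 7.60 at P1 (SE 0.44, adjusted p = 5.77e-05 by edgeR) and 7.92 at P6 (SE 0.36, adjusted p = 0.000645 by edgeR). The P1 value was 6.99 without P1 GFP- replicate 1 and 9.58 without replicate 2. The GFP- level rested on few counts, 4 and 41 at P1 and 6 and 9 at P6. The ratio of summed counts, scaled by library totals, was 179 at P1 (95% exact interval 133 to 245) and 238 at P6 (144 to 427), intervals that cover counting error only. P1 GFP- replicate 2, the library with the higher *Fgf3*, also had 465 CPM of 5 neuron genes against 139 CPM in replicate 1. It was higher too in *Lfng* (32.5 against 17.2 CPM), *Prox1* (18.8 against 7.47 CPM) and the summed pillar cell genes *Ngfr* and *Npy* (60.0 against 28.3 CPM). Of the 8 supporting cell genes only *Slc1a3* was lower in it (312 against 379 CPM). The part of these cell types in the result was not tested.

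*Fgf20* (ENSMUSG00000031603, chr8:41364520-41393685, minus strand) had the largest estimated fold of the 10 genes toward GFP+ cells at P1, within the error of *Fgf3*. Its levels were 12.3 and 11.0 CPM in P1 GFP+ cells and 0.0528 and 0.0317 CPM in P1 GFP- cells, the latter from 2 counts in each library. In P6 cells they were 5.63 and 4.65 CPM with GFP and 0.0973 and 0.133 CPM without. The fractions did not overlap, and the GFP+ level at P6 was below both P1 values. This gave a log2 fold change of 8.20 at P1 (SE 0.33, adjusted p = 2.07e-05 by edgeR) and 5.43 at P6 (SE 0.41, adjusted p = 0.00116 by edgeR). From 837 counts in P1 GFP+ and 4 in P1 GFP- cells the ratio of scaled counts was 299, with a wide 95% exact interval of 116 to 1099. At P6 it was 43.3 (25.7 to 78.5). An exon of *Efha2* overlaps 202 bases of the *Fgf20* exons, and the libraries do not mark the strand.

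*Fgf8* is the ligand that inner hair cells send to the neighbouring pillar cells. It was present at a low level in GFP+ cells (ENSMUSG00000025219, chr19:45811288-45817405, minus strand). The libraries gave 1.61 and 2.53 CPM in P1 GFP+ and 0.158 and 0.174 CPM in P1 GFP- cells, then 2.53 and 1.34 CPM in P6 GFP+ and 0.0811 and 0.236 CPM in P6 GFP- cells. All GFP+ values were above all GFP- values, and the GFP+ ranges of the ages overlapped. Between the fractions the log2 fold change was 3.69 at P1 (SE 0.41, adjusted p = 0.000692 by edgeR) and 3.55 at P6 (SE 0.64), where the adjusted p of 0.0118 by edgeR missed the threshold. Of the inner hair cell genes checked beside it, *Otof* had 114 to 191 CPM in GFP+ and 12.5 to 22.0 CPM in GFP- cells, whereas *Slc17a8* had 4.39 to 6.997 CPM in all 8 libraries. The part of hair cell RNA in the *Fgf8* level was not tested. In these bulk libraries, fewer cells of a type and less RNA per cell cannot be told apart.

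*Fgf10*, the ligand nearest to *Fgf3* in its early inner ear roles, was present in both fractions (ENSMUSG00000021732, chr13:119458598-119580922, plus strand). It had 188 and 156 CPM in P1 GFP+ and 18.1 and 64.6 CPM in P1 GFP- cells, and 121 and 118 CPM in P6 GFP+ against 19.4 and 15.4 CPM in P6 GFP- cells. GFP+ libraries were higher throughout, and the P1 GFP- replicates differed most. The log2 fold change was 2.77 at P6 (SE 0.19, adjusted p = 0.000956 by edgeR). At P1 it was 2.16 (SE 0.54) and missed the threshold (adjusted p = 0.0176 by edgeR). The estimate was 1.499 without P1 GFP- replicate 1 and 3.35 without replicate 2. Both of these passed, but such a fit leaves out the difference between the GFP- replicates and takes the spread from the P1 GFP+ pair alone, and over all genes the calls rose from 6972 to 9777 and 9798. P1 GFP- replicate 2 thus moved the size of the difference. Its higher levels of neuron genes (465 CPM), *Lfng*, *Prox1* and pillar cell genes are given above, and their part was not tested.

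*Fgf9* had its higher values in GFP- cells at P1 and in GFP+ cells at P6 (ENSMUSG00000021974, chr14:58689384-58731174, plus strand). At P1 it had 3.58 and 3.01 CPM in GFP+ and 4.35 and 8.83 CPM in GFP- cells. At P6 it had 7.03 and 6.96 CPM in GFP+ and 3.29 and 3.19 CPM in GFP- cells. Neither difference passed, with log2 fold changes of -0.89 at P1 (SE 0.36, adjusted p = 0.0856 by edgeR) and 1.10 at P6 (SE 0.25, adjusted p = 0.0234 by edgeR). The P1 difference rested on P1 GFP- replicate 2, whose marker levels are given above and were not tested for their part in it. It was -0.29 without that library (adjusted p = 0.318 by edgeR) and -1.32 without replicate 1, which passed with the spread taken from the GFP+ pair alone.

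The receptor kinases divided into one that was high in GFP+ cells and 2 that were high in GFP- cells. *Fgfr3* (ENSMUSG00000054252, chr5:34064373-34079716, plus strand), the receptor needed for pillar cell development and found in Deiters' cells, had 1969 and 2196 CPM in P1 GFP+ cells and 17.3 and 30.4 CPM in P1 GFP- cells. At P6 the values were 1470 and 1115 CPM against 36.8 and 41.2 CPM. Log2 fold changes were 6.55 at P1 (SE 0.32, adjusted p = 3.32e-05 by edgeR) and 5.05 at P6 (SE 0.28, adjusted p = 0.000719 by edgeR). Per kilobase of exon, *Fgfr3* lay above 99.6% of the genes detected in P1 GFP+ cells and above 99.2% of those in P6 GFP+ cells. In GFP- cells it lay above 55.8% at P1 and 64.7% at P6. The pillar cell genes *Ngfr* and *Npy*, checked beside it, summed to 40.6 to 82.95 CPM in GFP+ and 11.7 to 60.0 CPM in GFP- libraries.

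*Fgfr4* showed the opposite pattern and the largest difference of any receptor toward GFP- cells (ENSMUSG00000005320, chr13:55254001-55270120, plus strand). It had 5.39 and 5.34 CPM in P1 GFP+ and 266 and 215 CPM in P1 GFP- cells, a log2 fold change of -5.38 (SE 0.15, adjusted p = 1.02e-05 by edgeR). In P6 GFP+ cells the replicates were unlike, at 12.3 and 51.4 CPM, while GFP- cells had 287 and 352 CPM. Both GFP+ values were still well below the GFP- range. The 7 mesenchyme genes summed to 286 to 2754 CPM in GFP+ and 13540 to 18107 CPM in GFP- libraries, and their part was not tested. The P6 log2 fold change of -3.34 (SE 0.65) had an adjusted p of 0.0143 by edgeR, which missed the threshold.

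*Fgfr2* followed *Fgfr4* (ENSMUSG00000030849, chr7:137305965-140315033, minus strand), and its gene counts do not separate the splice forms that bind different ligands. In P1 cells it had 6.33 and 7.95 CPM with GFP and 169 and 144 CPM without, a log2 fold change of -4.36 (SE 0.15, adjusted p = 1.40e-05 by edgeR). In P6 cells it had 14.2 and 63.2 CPM with GFP and 256 and 271 CPM without, a log2 fold change of -2.78 (SE 0.65, adjusted p = 0.0247 by edgeR). As for *Fgfr4*, the higher P6 GFP+ value came from replicate 2. One annotated transcript extends the gene far upstream, and 314 of its exon bases overlap *Ctbp2*.

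The gap between the P6 GFP+ replicates was shared with genes of other cell types. Besides mesenchyme, replicates 1 and 2 had 24.4 and 57.6 CPM of 4 macrophage genes, 40.2 and 169 CPM of 4 endothelial genes, 943 and 1902 CPM of 4 Schwann cell genes, 25.9 and 82.5 CPM of 3 melanocyte genes, and 6055 and 9914 CPM of 4 cartilage genes. The Schwann cell gene *Sox10* went the other way, at 340 and 306 CPM. The 5 neuron genes had 60.4 and 71.7 CPM. Replicate 2 was also above both P6 GFP- libraries in the Schwann cell genes (1014 and 1230 CPM) and the endothelial genes (112 and 103 CPM), unlike in *Fgfr2* and *Fgfr4*. None of these genes was at 0 in a P6 GFP+ library. Over the 773 genes whose fitted level at P1 was more than 16-fold higher in GFP- cells, the median log2 difference between P6 GFP+ replicates, on the log2(CPM + 1) scale, was 0.77. Between the P1 GFP+ replicates it was 0. *Fgfr2* and *Fgfr4* are among these 773 genes, and both differed between the P6 GFP+ replicates by more than the median. With replicate 1 as the only P6 GFP+ library, the log2 fold change was -4.19 for *Fgfr2* and -4.68 for *Fgfr4*, and with replicate 2 as the only one it was -2.03 and -2.61. All 4 values passed, with the spread taken from the GFP- pair alone. *Fgfr2*, *Fgfr4* and *Fgf8* also passed at P6 by DESeq2 and with all 8 libraries in one fit. The part of other cell types in these levels was not tested beyond these values.

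*Fgfr1*, the receptor of the sensory region in the embryo, was the most evenly spread receptor (ENSMUSG00000031565, chr8:26624126-26686186, plus strand). It had 287 and 291 CPM in P1 GFP+ and 424 and 399 CPM in P1 GFP- cells, and 117 and 150 CPM in P6 GFP+ against 420 and 405 CPM in P6 GFP- cells. The GFP- ranges of the ages overlapped, and the GFP+ ranges did not. Between the fractions the log2 fold change was -0.41 at P1 (SE 0.09, adjusted p = 0.0125 by edgeR), just short of the threshold, and -1.64 at P6 (SE 0.20, adjusted p = 0.00403 by edgeR). At P1 it passed with library totals in place of TMM scaling (-0.51) and by DESeq2 (-0.43). A second annotated *Fgfr1* identifier overlaps this gene and was not analysed here.

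*Fgfrl1*, the receptor that lacks a kinase, went with *Fgfr3* (ENSMUSG00000008090, chr5:109123248-109135969, plus strand). It had 447 and 477 CPM in P1 GFP+ and 24.1 and 41.5 CPM in P1 GFP- cells. At P6 the values were 325 and 250 CPM with GFP, and 43.1 and 40.4 CPM without. GFP+ libraries were higher at both ages with no overlap, by a log2 fold change of 3.92 at P1 (SE 0.26, adjusted p = 9.64e-05 by edgeR) and 2.78 at P6 (SE 0.22, adjusted p = 0.00125 by edgeR).

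**Figure D2:**
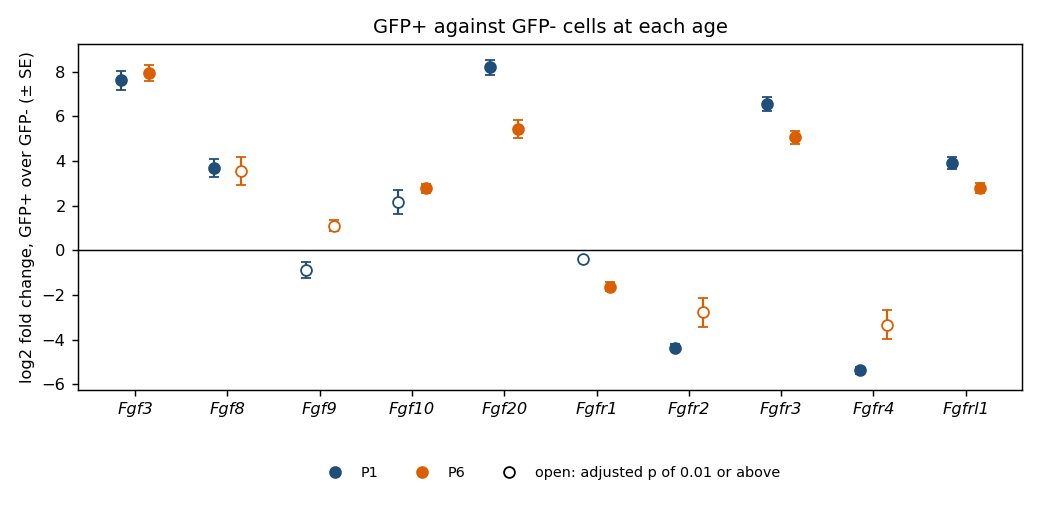
Log2 fold change of each gene between GFP+ and GFP- cells at P1 (blue) and P6 (orange), with its standard error, from fits on the 4 libraries of each age. Filled points passed at an adjusted p below 0.01. *Fgf3*, *Fgf20*, *Fgfr3* and *Fgfrl1* are filled above 0 at both ages, and *Fgf9* changes side.

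Levels of different genes were compared per kilobase of exon. In P1 GFP+ cells the order was *Fgfr3* (303 CPM per kilobase), *Fgfrl1* (174), *Fgf10* (37.5), *Fgfr1* (35.8), *Fgf3* (33.7), *Fgf20* (6.94), *Fgf8* (1.54), *Fgfr4* (1.51), *Fgfr2* (0.916) and *Fgf9* (0.773), where the ranges of *Fgf10* and *Fgfr1*, of *Fgf8* and *Fgfr4* and of *Fgfr2* and *Fgf9* overlapped. The range of *Fgf10* also overlapped that of *Fgf3*. In P6 GFP+ cells *Fgfr3* (188) and *Fgfrl1* (108) again led, followed by *Fgf10* (26.0) and *Fgfr1* (16.6). Below them, *Fgf3* (12.4), *Fgfr4* (8.95), *Fgfr2* (4.97) and *Fgf20* (3.06) overlapped from one to the next. *Fgf20* was apart from *Fgf9* (1.64), which overlapped *Fgf8* (1.43) at the end. The range of *Fgf8* also overlapped that of *Fgfr2*.

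GFP- cells had another order, led by *Fgfr4*. In P1 GFP- cells it ran from *Fgfr4* (67.7 CPM per kilobase), *Fgfr1* (51.1) and *Fgfr2* (20.1) to *Fgfrl1* (12.3), *Fgf10* (8.98) and *Fgfr3* (3.46), the last 3 with overlapping neighbours, and then *Fgf9* (1.54). *Fgf3* (0.162) and *Fgf8* (0.123) overlapped near the end, and *Fgf20* (0.0252) was lowest. In P6 GFP- cells the order was *Fgfr4* (89.9), *Fgfr1* (51.2), *Fgfr2* (33.8), *Fgfrl1* (15.7), *Fgfr3* (5.67), *Fgf10* (3.78) and *Fgf9* (0.760). *Fgf8* (0.118) and *Fgf20* (0.0686) overlapped, and *Fgf3* (0.0495) was lowest.

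The makeup of the 4 receptor kinases, as shares of their summed level per kilobase, does not depend on the scaling between libraries. *Fgfr3* made up 88.8% ± 0.65 (SD, n = 2) of it in P1 GFP+ and 85.6% ± 8.33 in P6 GFP+ cells, but 2.49% ± 1.18 in P1 GFP- and 3.14% ± 0.018 in P6 GFP- cells. *Fgfr4* made up 47.4% ± 2.66 in P1 GFP- and 49.7% ± 3.45 in P6 GFP- cells, against 0.444% ± 0.034 in P1 GFP+ and 4.29% ± 3.98 in P6 GFP+ cells. The receptor with the largest share was thus *Fgfr3* in all 4 GFP+ libraries and *Fgfr4* in all 4 GFP- libraries. *Fgfr1* was second in every library, with group means of 10.5% in P1 GFP+, 36.0% in P1 GFP-, 7.68% in P6 GFP+ and 28.4% in P6 GFP- cells. The lead of *Fgfr4* depends on the length used. With the longest transcript of each gene in place of all exons, P1 GFP- cells had 42.2% *Fgfr1* and 36.8% *Fgfr4*, while P6 GFP- cells kept *Fgfr4* ahead at 38.7% against 33.5%.

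**Figure D3:**
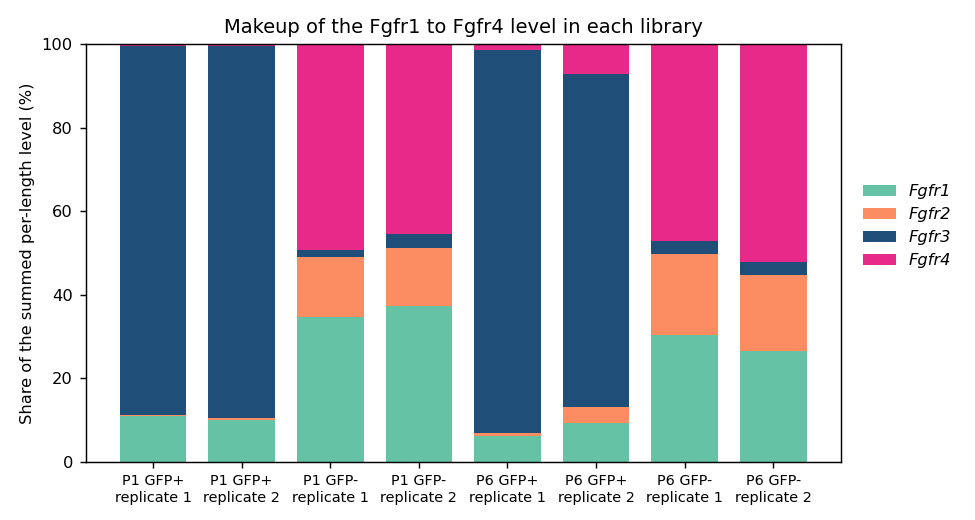
Share of *Fgfr1* to *Fgfr4* in their summed level per kilobase of exon, in percent, for each of the 8 libraries, with 1 stacked bar per library. *Fgfr3* fills 79.7% to 91.5% of the GFP+ bars, and *Fgfr4* with *Fgfr1* fills most of the GFP- bars.

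Among the 5 ligands, taken the same way, *Fgf10* and *Fgf3* together held most of the GFP+ level. *Fgf10* made up 46.5% ± 1.79 (SD, n = 2) and *Fgf3* 42.0% ± 0.92 of the ligand level in P1 GFP+ cells, with 8.63% ± 0.13 for *Fgf20*. In P6 GFP+ cells the shares were 58.6% ± 4.57 for *Fgf10*, 27.6% ± 3.57 for *Fgf3* and 6.88% ± 0.25 for *Fgf20*. In GFP- cells *Fgf10* (80.7% at P1 and 78.9% at P6) and *Fgf9* (16.2% and 15.98%) made up nearly all of a much lower ligand level.

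The second question was what changed between P1 and P6 within each fraction. In GFP+ cells, none of the 10 genes passed, against 2.86% of 17213 genes tested that were higher at P6 and 1.95% that were lower. At an adjusted p below 0.05 by edgeR, 5 of the 10 genes were called (20.4% of all genes tested), which were *Fgf3*, *Fgf9*, *Fgf20*, *Fgfr1* and *Fgfr4*. At an unadjusted p below 0.05, 9 of the 10 were (38.2% of all), and by DESeq2 at an adjusted p below 0.01, 2 were higher and 3 lower at P6. Without P6 GFP+ replicate 1, and also without replicate 2, 9 of the 10 genes passed, but these fits leave out the difference between the P6 GFP+ replicates and take the spread from the P1 GFP+ pair alone. The counts over all genes rose alike, from 828 genes passing with all 4 libraries to 6404 without replicate 1 and 7531 without replicate 2.

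The estimates for the ligands in GFP+ cells pointed in different directions, and none passed. The log2 fold change from P1 to P6 was -1.36 for *Fgf3* (SE 0.21, adjusted p = 0.0142 by edgeR), -1.09 for *Fgf20* (SE 0.23, adjusted p = 0.0328 by edgeR) and -0.44 for *Fgf10* (SE 0.15, adjusted p = 0.0970 by edgeR). It was 1.17 for *Fgf9* (SE 0.25, adjusted p = 0.0319 by edgeR) and -0.01 for *Fgf8* (SE 0.46). For *Fgf3*, *Fgf9*, *Fgf10* and *Fgf20* the ranges of the ages were apart in the 2 libraries of each group.

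The log2 fold changes of the receptors in GFP+ cells had both signs, and none passed. From P1 to P6 it was -1.02 for *Fgfr1* (SE 0.15, adjusted p = 0.0131 by edgeR), -0.59 for *Fgfr3* (SE 0.22, adjusted p = 0.114 by edgeR) and -0.59 for *Fgfrl1* (SE 0.19, adjusted p = 0.0824 by edgeR). It was 2.53 for *Fgfr2* (SE 0.68, adjusted p = 0.0567 by edgeR) and 2.65 for *Fgfr4* (SE 0.66, adjusted p = 0.0469 by edgeR). With only replicate 1 of the P6 GFP+ libraries the *Fgfr2* and *Fgfr4* values were 1.14 and 1.31, and with only replicate 2, the library with more mesenchyme, macrophage and endothelial RNA, they were 3.23 and 3.32.

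In GFP- cells, 8 of the 10 genes passed the filter on low counts and *Fgf3* and *Fgf20* did not. *Fgfr2* was higher at P6, by a log2 fold change of 0.94 (SE 0.12, adjusted p = 0.00365 by edgeR), and was the 1 member among the 5.04% of 18920 genes that were higher. It did not pass with library totals in place of TMM scaling (adjusted p = 0.0102 by edgeR), without P6 GFP- replicate 1 (adjusted p = 0.0224 by edgeR) or without replicate 2 (adjusted p = 0.0205 by edgeR). None of the 8 was called lower, against 2.34% of all genes, while *Fgf9* had an unadjusted p below 0.05 in that direction and DESeq2 also called none lower. The remaining log2 fold changes were 0.90 for *Fgfr3* (adjusted p = 0.0453 by edgeR), 0.60 for *Fgfr4* (adjusted p = 0.0362 by edgeR), 0.54 for *Fgfrl1*, 0.19 for *Fgfr1*, 0.12 for *Fgf8*, -0.84 for *Fgf9* and -1.06 for *Fgf10*. The last 2 rested on P1 GFP- replicate 2, without which they were -0.25 and 0.12.

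**Figure D4:**
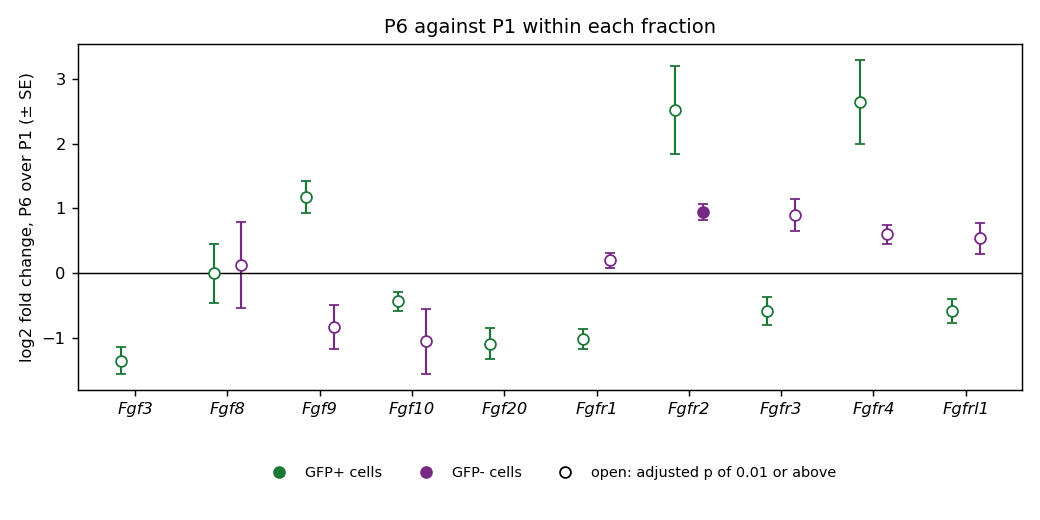
Log2 fold change of each gene from P1 to P6 in GFP+ cells (green) and in GFP- cells (purple), with its standard error. Only *Fgfr2* in GFP- cells is filled (adjusted p below 0.01), and *Fgf3* and *Fgf20* have no GFP- point because they did not pass the low count filter there.

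The third question was whether the GFP+ to GFP- ratio differed between the ages, for which the 8 libraries were fitted together with an interaction term. None of the 10 passed, against 1.93% of 19233 genes. At an adjusted p below 0.05 by edgeR, 3 of the 10 were called (6.38% of all genes), and at an unadjusted p below 0.05, 6 of the 10 were (21.2% of all), while DESeq2 called 3 at an adjusted p below 0.01. The log2 ratio at P6 minus that at P1 was -2.77 for *Fgf20* (SE 0.59, adjusted p = 0.0326 by edgeR), -1.24 for *Fgfr1* (SE 0.20, adjusted p = 0.0125 by edgeR) and 1.99 for *Fgf9* (SE 0.48, adjusted p = 0.0492 by edgeR). *Fgfr1* passed when either P6 GFP+ library was left out, with -1.11 and -1.41, in fits that take the spread from the other 3 groups. The values for *Fgfr3* (-1.51, SE 0.39), *Fgfrl1* (-1.15), *Fgfr4* (2.03), *Fgfr2* (1.56), *Fgf10* (0.60), *Fgf3* (0.28) and *Fgf8* (-0.15) had adjusted p-values from 0.0606 to 0.945 by edgeR. Those of *Fgfr2* and *Fgfr4* were 0.16 and 0.68 without P6 GFP+ replicate 2, and 2.25 and 2.69 without replicate 1.

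Other genes of the FGF ligand family were taken as a list of 17, of which 12 passed the filter at P1 and at P6. The list holds *Fgf11*, *Fgf12*, *Fgf13* and *Fgf14*, whose proteins are intracellular and not secreted ligands. At P1, 2 of the 12 were higher in GFP+ cells, against 16.6% of all genes tested, and 4 in GFP- cells, against 20.7%, with a median log2 fold change of -0.05 beside 0.01 over all genes tested. Of these 4, only *Fgf18* is a secreted ligand, and the others were *Fgf12*, *Fgf13* and *Fgf14*. *Fgf15*, an ileal hormone that is also made in the embryonic nervous system, went furthest. It had 4.49 and 4.18 CPM in P1 GFP+ and 0.0792 and 0.0951 CPM in P1 GFP- cells, and 15.2 and 11.6 CPM in P6 GFP+ against 0 and 0.0739 CPM in P6 GFP- cells. Its GFP+ and GFP- ranges were far apart at both ages, with log2 fold changes of 5.67 (SE 0.35, adjusted p = 6.95e-05 by edgeR) and 8.34 (SE 0.73, adjusted p = 0.00164 by edgeR). The P6 value rests on 0 and 5 GFP- counts, and the ratio of scaled counts there had a 95% exact interval from 143 to 1034.

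*Fgf2*, a widely made heparin-bound ligand, was higher in P1 GFP+ cells with 5.59 and 5.26 CPM against 1.06 and 1.09 CPM (log2 fold change 2.44, adjusted p = 0.000386 by edgeR). *Fgf18* (-3.92), a ligand of cartilage and bone growth, and *Fgf12* (-3.61) and *Fgf13* (-2.58), which encode intracellular partners of sodium channels rather than secreted ligands, were higher in P1 GFP- cells. At P6, only *Fgf15* was called higher in GFP+ cells and *Fgf12* (-2.40) higher in GFP- cells, 1 of 12 each against 7.72% and 5.19% of all genes, and the median was -0.07 beside -0.02 over all genes. *Fgf11*, another intracellular member, had 26.2 to 46.2 CPM over the 8 libraries, with a log2 fold change between the fractions of -0.10 at P1 and 0.28 at P6.

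Between the ages, none of the 12 genes of this list tested in GFP+ cells passed by edgeR, with 5 at an unadjusted p below 0.05 and 1 called by DESeq2. *Fgf15* was nearest, with 1.72 (SE 0.25, adjusted p = 0.0127 by edgeR). In GFP- cells *Fgf7*, a mesenchymal ligand, had 1.32 and 1.65 CPM at P1 and 4.20 and 4.20 CPM at P6, and was called higher (log2 fold change 1.68, adjusted p = 0.00696 by edgeR), though not without P6 GFP- replicate 1 (adjusted p = 0.0657 by edgeR) or replicate 2 (adjusted p = 0.0479 by edgeR). None of 13 passed the interaction test by edgeR, with 5 at an unadjusted p below 0.05 and 3 called by DESeq2.

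**Figure D5:**
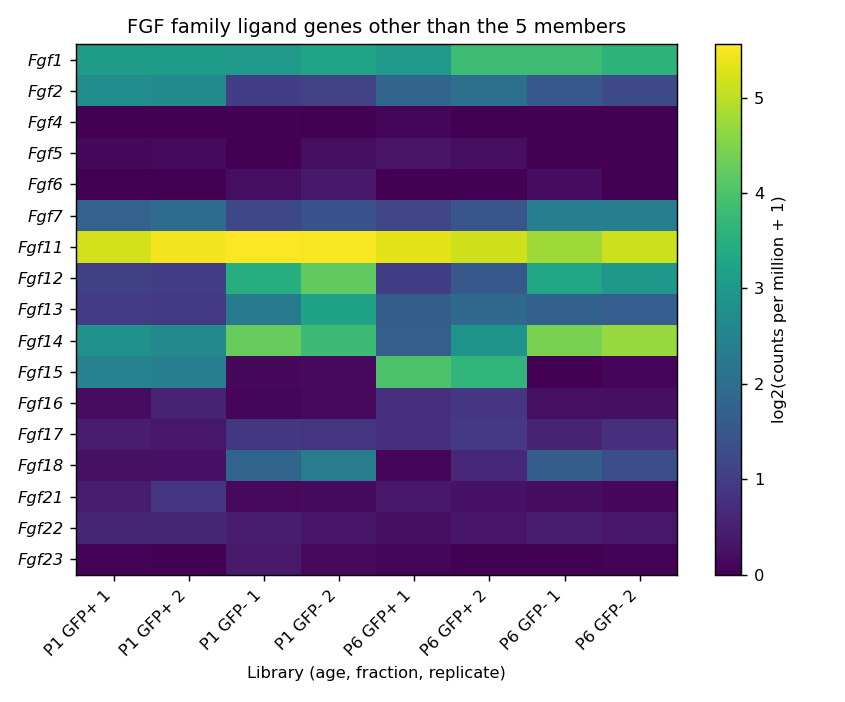
Level of the 17 other genes of the FGF ligand family, including the intracellular members, in each of the 8 libraries, as color on the scale log2(CPM + 1). *Fgf15* is bright in the GFP+ columns alone, *Fgf11* is much alike in all 8 columns, and *Fgf12*, *Fgf14* and *Fgf18* are brighter in the GFP- columns.

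Heparan sulfate proteoglycans, the enzymes that sulfate them and other extracellular modulators of FGF binding formed a list of 23. At P1, 5 were higher in GFP+ cells (against 16.6% of all genes) and 9 in GFP- cells (against 20.7% of all genes), with a median log2 fold change of -0.30 beside 0.01 over all genes. At P6 the counts were 3 (against 7.72% of all genes) and 4 (against 5.19% of all genes), with a median of -0.66 beside -0.02. The glypican *Gpc1* had 1031 and 1213 CPM in P1 GFP+ and 94.7 and 169 CPM in P1 GFP- cells, and 279 and 249 CPM in P6 GFP+ against 157 and 139 CPM in P6 GFP- cells. Its level was highest in P1 GFP+ cells with no overlap, by a log2 fold change of 3.19 between the fractions at P1 (SE 0.28, adjusted p = 0.000289 by edgeR). It was the 1 gene of 22 tested called lower at P6 than at P1 in GFP+ cells, against 1.95% of all genes (log2 fold change -1.99, SE 0.17, adjusted p = 0.00398 by edgeR). The call was lost without P1 GFP+ replicate 2, where the log2 fold change was -1.90. In that age comparison 5 of the list were higher and 3 lower at an unadjusted p below 0.05, and DESeq2 called 2 higher and 3 lower.

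The heparan sulfate 6-O-sulfotransferases *Hs6st1* and *Hs6st2* were higher in GFP+ cells at both ages, by 2.29 and 2.30 on the log2 scale at P1 and 2.13 and 3.17 at P6. *Sdc4*, a syndecan, was too, by 2.06 and 2.60. *Gpc3*, another glypican, was higher in GFP- cells at both ages (-4.11 and -3.14), as was *Flrt3*, a membrane partner of FGF receptors (-2.91 and -2.99). *Il17rd*, an inhibitor of FGF signaling also called Sef, was higher in P1 GFP- cells (-3.13) and was called lower at P6 than at P1 in GFP- cells (-1.12), though not without P6 GFP- replicate 1 (adjusted p = 0.0488 by edgeR) or replicate 2 (adjusted p = 0.0444 by edgeR).

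*Sulf2*, an enzyme that removes 6-O-sulfate outside the cell, changed sides between the ages. It had 72.9 and 85.2 CPM in P1 GFP+ and 49.6 and 56.8 CPM in P1 GFP- cells, and 31.5 and 48.2 CPM in P6 GFP+ against 211 and 225 CPM in P6 GFP- cells. The fraction that was higher at P1 was thus lower at P6, with log2 fold changes of 0.67 at P1 (adjusted p = 0.00319 by edgeR) and -2.46 at P6 (adjusted p = 0.00215 by edgeR). It was the 1 gene of 23 to pass the interaction test, against 1.93% of all genes (-3.15, SE 0.27, adjusted p = 0.00115 by edgeR). It missed the threshold without P6 GFP- replicate 1 (-3.16) or replicate 2 (-3.14). In GFP- cells it was higher at P6 by 2.23 on the log2 scale.

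The receptor adapters and members of the ERK cascade had called genes in both directions. Of 19 genes tested at P1, *Map2k1*, which encodes the kinase MEK1, was higher in GFP+ cells (1.33) and 3 genes were higher in GFP- cells, among them the adapter *Shc1* (-1.73) and the docking protein *Gab1* (-0.57), against 16.6% and 20.7% of all genes. At P6 *Map2k1* (1.32) and *Shc1* (-1.72) were called in the same directions, 1 of 19 each against 7.72% and 5.19%. The list medians were 0.02 at P1 and 0.00 at P6, beside 0.01 and -0.02 over all genes. Between the ages none passed by edgeR in either fraction, with 3 at an unadjusted p below 0.05 in GFP+ cells and 2 in GFP- cells, and DESeq2 called 1 in GFP+ cells. None passed the interaction test either, with 2 at an unadjusted p below 0.05 and 0 by DESeq2.

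The feedback inhibitors and ERK-induced factors included genes on both sides. Of 10 genes tested, 2 were higher in GFP+ cells at P1 (against 16.6% of all genes) and 5 in GFP- cells (against 20.7% of all genes), with a median log2 fold change of -0.63 beside 0.01 over all genes. At P6 the counts were 1 (against 7.72% of all genes) and 5 (against 5.19% of all genes), with a median of -1.47 beside -0.02. *Spry2* had 152 and 132 CPM in P1 GFP+ and 31.5 and 35.6 CPM in P1 GFP- cells, and 242 and 182 CPM in P6 GFP+ against 45.9 and 38.3 CPM in P6 GFP- cells. *Spry4* went the other way, with 3.49 and 3.29 CPM in P1 GFP+ and 56.6 and 67.3 CPM in P1 GFP- cells, and 3.43 and 10.7 CPM in P6 GFP+ against 72.9 and 56.0 CPM in P6 GFP- cells. These relatives therefore marked opposite fractions, with log2 fold changes of 2.19 and 2.33 for *Spry2* and -4.08 and -3.17 for *Spry4*.

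*Spry1* was higher in GFP+ cells at P1 (1.32), where it had 48.7 and 51.7 CPM, and it had 21.6 and 19.0 CPM in P6 GFP+ cells. It was the 1 gene of the 10 called lower at P6 than at P1 in GFP+ cells, against 1.95% of all genes tested (log2 fold change -1.22, SE 0.15, adjusted p = 0.00829 by edgeR). It did not pass without P1 GFP+ replicate 1 (adjusted p = 0.0316 by edgeR) or replicate 2 (adjusted p = 0.0845 by edgeR). The ETS-family genes *Etv1* (-2.11), *Etv5* (-1.79) and *Etv4* (-1.63) were higher in GFP- cells at P6, and of these *Etv1* also was at P1 (-1.24). *Spred2* (-1.66), which encodes another inhibitor of the pathway, was higher in GFP- cells at P1. From P1 to P6 in GFP+ cells, the median log2 fold change of the 10 was -0.65 beside -0.0024 over all genes tested. There 1 was higher and 5 were lower at an unadjusted p below 0.05, and DESeq2 called 4 lower and 0 higher. In GFP- cells none of the 10 changed with age by edgeR, with 3 at an unadjusted p below 0.05 and 1 called by DESeq2. None passed the interaction test by edgeR, with 3 at an unadjusted p below 0.05 and 3 called by DESeq2.

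Some of these list calls at P1 also depended on single libraries. Without P1 GFP+ replicate 1, and again without replicate 2, 4 of the 6 other FGF family genes, 11 of the 14 modulators, 2 of the 4 adapters and cascade genes and 6 of the 7 feedback genes still passed, and *Fgf13*, *Fgf14*, *Sulf2*, *Kl*, *Hs2st1*, *Gab1* and *Spred3* were among those that did not. At P6, all list calls were lost without P6 GFP- replicate 2, and without replicate 1 only 2 of 7 modulators and 1 of 2 other FGF family genes still passed. Sizes moved too, since without P6 GFP+ replicate 2 the P6 log2 fold changes were -4.05 for *Gpc3*, -3.89 for *Flrt3*, -4.21 for *Spry4* and -2.75 for *Etv1*, and without replicate 1 those of *Gpc3* and *Spry4* were -2.55 and -2.56. Without P1 GFP- replicate 2 the P1 value of *Fgf13* was -1.97, and without P6 GFP- replicate 1 the P6 value of *Fgf15* was 7.49.

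The genes most like 4 of the members across the 8 libraries were found among 15477 genes, by the root mean square difference of log2(CPM + 1) after each gene was centred on its own mean. For *Fgfr3* they were *Tmprss3* (0.41), *Slitrk6* (0.42) and *Ntf3* (0.48). For *Fgf3* the nearest were *Slc27a2* (0.20) and *Ntf3* (0.24), and for *Fgf20* they were *Prkcq* (0.19), *Nckap5* (0.19) and *Htra4* (0.20). For *Fgf8* they were *Slc27a1* (0.11), *Macrod1* (0.12) and *Pick1* (0.13), although the added 1 flattens so low a gene and makes it like any gene that differs little. The added 1 also flattens the low GFP- levels of *Fgf3* and *Fgf20*. Mean levels in P1 GFP+ and GFP- cells were 11.6 and 0.0422 CPM for *Fgf20*. They were 163 and 15.0 CPM for *Prkcq*, 356 and 37.9 CPM for *Nckap5* and 18.6 and 0.285 CPM for *Htra4*. All the genes found this way were higher in both GFP+ groups than in both GFP- groups by their mean CPM, and the values are a description with no test.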

How the data were processed

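Gene counts were analysed from 8 libraries, 2 each of GFP+ and GFP- cells at P1 and P6. The authors deposited a table of raw counts by Ensembl gene for each library, made from paired-end reads of unstranded TruSeq libraries aligned to mm9 (NCBIM37) with TopHat (1.4.0 in the submitters' processing notes), without normalization. HTSeq and DESeq 1.9.2 are also named there, and the counting mode is not given in the sources used here. Of all reads or pairs listed for a library, 64.7% to 76.2% fell on genes. Those on no gene, on several genes or at several places were left out, so genes sharing sequence are undercounted.

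Groups came from the labels. Each comparison was fitted on its 4 libraries (the interaction on 8) with edgeR 4.0.16 in R 4.3.3, with TMM scaling, filterByExpr at a count of 10 and a total of 15, the quasi-likelihood test and Benjamini-Hochberg adjustment over all genes tested. A gene passed at an adjusted p below 0.01, and SE is the log2 fold change divided by the square root of F. DESeq2 1.42.0 was an alternative, beside other scalings, no filter, other thresholds, a replicate block, all 8 libraries in the fit and leaving out each library. The script was tested on simulated counts with known changes. Intervals cover counting error only. The members and lists were chosen with earlier results of these data known. The text names all 10 members, at most 3 genes per direction from each list, and the 3 genes most like each of 4 members. Genes named beyond this (*Fgf11*, *Etv4*, *Sdc4* and *Sulf2* at P1, marker genes, those not passing and those losing calls) were chosen after their values were seen. Positions and lengths are from the NCBIM37 annotation, which held 34391 of 36536 genes, and promoters are from RefSeq. Figures used matplotlib 3.10.9 and Python 3.11.15. Some genes that the lists or the naming rule hold are counted but not reported here by name.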

Additional observations from a re-analysis of the deposited data

Results flagged for a closer look

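*Fgf9*, *Fgf20* and *Fgfr3* moved in opposite directions between groups in every library. *Fgf9* was lower in both GFP+ than in both GFP- libraries at P1 and higher at P6, and likewise higher at P6 in GFP+ and lower at P6 in GFP- cells, with a difference of the log2 ratios of 1.99 (interaction, adjusted p = 0.0492 by edgeR). Without P1 GFP- replicate 2, the *Fgf9* log2 fold change between the fractions at P1 was -0.29. The change of *Fgf9* with age in GFP- cells also rested on that library. *Fgf20* was lower at P6 in both GFP+ libraries and higher in both GFP- libraries, where it rests on 2, 2, 6 and 9 counts, with a difference of -2.77 (adjusted p = 0.0326 by edgeR). *Fgfr3* was lower at P6 in GFP+ and higher in GFP- cells, with a difference of -1.51 (adjusted p = 0.0606 by edgeR). None of these differences passed at 0.01.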

How the results depend on the processing

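With 2 libraries a group, the counts of genes called among the 10 moved with the settings. At P1, 5 or 6 were higher in GFP+ cells in every setting, and 2 in GFP- cells became 4 with no filter (2 to 4 when a library was left out). At P6, higher in GFP+, leaving out a library gave 0 to 7. At P6, higher in GFP-, 1 became 2 with median-of-ratios size factors, 3 with DESeq2, no filter, all 8 libraries or an adjusted p below 0.05, 0 with a fold above 4 required, and 0 to 3 by leaving out a library. For age in GFP+ cells, 0 higher became 2 with DESeq2, 3 with no filter, 1 with all 8 libraries and 2 at 0.05 (0 to 3 by leaving out a library), and 0 lower became 3, 4, 1 and 3 (0 to 6). For age in GFP- cells, 1 higher became 0 with library totals, all 8 libraries or a fold above 4, 3 with DESeq2 or at 0.05 and 4 with no filter (0 to 3), and 0 lower became 1 with no filter (0 to 2). For the interaction, 0 with a higher P6 ratio became 1 with DESeq2, 3 with no filter and 1 at 0.05 (0 to 2), and 0 with a lower one became 2, 4 and 2 (0 to 1). The no-filter fits estimate the spread with many near-empty genes included, and otherwise the cause was not tested. Over all genes, the calls ranged from 0 to 3428 higher in GFP+ and 0 to 4337 higher in GFP- cells at P6, and from 80 to 3927 higher and 57 to 3604 lower at P6 in GFP+ cells, from 218 to 2351 and 31 to 1642 in GFP- cells, and from 13 to 1658 and 15 to 748 in the interaction. At P1 they ranged from 1564 to 4642 and 2108 to 5412.

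Libraries of the same replicate number showed no clear shared deviation (correlation of deviations 0.02 between the fractions at P1, 0.09 at P6, -0.08 between ages in GFP+ and -0.26 in GFP- cells). These correlations cannot show whether such libraries came from the same sort. A replicate block gave 3 genes higher in GFP- cells at P6 in place of 1, and 1 lower at P6 in GFP+ cells in place of 0. Pairing crossed numbers in GFP- cells, an alternative chosen after seeing the data, gave 3 higher in place of 1. The direction turned for *Fgf8* between ages in GFP+ cells (0.00038 with median-of-ratios, 0.00685 with DESeq2, -0.52 to 0.46 when a library was left out, above 0 without P1 or P6 GFP+ replicate 2), for *Fgf8* in GFP- cells (-0.0606 with library totals, -0.00721 with crossed pairing, -0.80 to 0.66 when a library was left out, lowest without P6 GFP- replicate 2) and for the *Fgf8* interaction (-0.70 to 0.76, with 0.20, 0.28 and 0.76 without P1 GFP+, P6 GFP+ or P6 GFP- replicate 2). Without P1 GFP- replicate 2 it turned for *Fgf10* between ages in GFP- cells (0.12, range -1.71 to 0.12) and in the interaction (-0.51, range -0.51 to 1.27), and for *Fgf3* in the interaction (-1.61, range -1.61 to 0.93). Library totals in place of TMM moved the median of all genes by -0.10 at P1, -0.19 between ages in GFP- cells and 0.12 in the interaction. With the longest transcript, or with no division by length, the receptor shares became 0.292% or 0.226% for *Fgfr4* in P1 GFP+ cells, 42.2% or 49.5% for *Fgfr1*, 18.0% or 18.8% for *Fgfr2* and 36.8% or 28.8% for *Fgfr4* in P1 GFP- cells, and 33.5% or 39.9%, 24.1% or 25.5%, 3.73% or 3.76% and 38.7% or 30.8% for *Fgfr1*, *Fgfr2*, *Fgfr3* and *Fgfr4* in P6 GFP- cells. With no division, P1 GFP+ shares were 12.1% for *Fgfr1*, 0.299% for *Fgfr2* and 87.3% for *Fgfr3*. Low counts limit *Fgf3*, *Fgf8* and *Fgf20* in GFP- cells.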
